A study of Mus musculus with 40 samples.

Results

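The 3 Gadd45 genes (Gadd45a, Gadd45b and Gadd45g) and Dusp2 were followed in mice labelled WT or KO for the histone chaperone HIRA, in the stem cells of the blood (HSCs) and the multipotent progenitors below them (MPPs). They are 4 of the 30365 gene symbols in the 6 expression tables, picked by symbol because of how they stood in mice labelled Hira KO against WT, so those differences are given here as descriptions with no test. Each of the 4 reached 1 FPKM in enough libraries (4 in the first cohort, 3 in the H2B-GFP cohort) to pass the filter on low values in 6 of 6 tables, and none was at 0 in any library.

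HIRA deposits the histone H3.3 independently of DNA replication. Libraries came from C57BL/6 mice, and the groups labelled HIRA KO carried floxed Hira with Mx1-Cre, whose promoter answers to interferon and is not restricted to blood cells. The alleles of the WT groups are not spelled out in the labels, and the treatment text, 2 doses of 20 µg poly(I:C) (a synthetic RNA duplex and inducer of interferon), is attached to WT and KO samples alike. In the first cohort 2500 HSCs or MPPs were sorted when 1 week had passed since dosing began, and each cell type has 4 WT and 4 KO libraries (16 libraries). In the H2B-GFP cohort the mice also carried Rosa26-M2rtTA and TetOP-H2B-GFP, which marked chromatin during a 6-week pulse of doxycycline, and cells were sorted after a chase of 17 days, when 15 days had passed since the last poly(I:C). Each division dilutes the mark, which makes GFP-high the less divided and GFP-low the more divided cells, and each of these 4 populations had 3 WT and 3 KO libraries (24 libraries).

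GADD45 proteins are small acidic proteins with no enzyme activity of their own, made in response to DNA damage, cytokines and other stress. They bind and switch on the kinase MTK1 (gene Map3k4) upstream of p38 and JNK, bind PCNA, p21 and the CDK1-cyclin B complex, and have been tied to removal of DNA methylation through base excision repair. Gadd45a is a target of p53, Gadd45b of NF-kB and TGF-beta signalling, and Gadd45g of cytokine signalling. DUSP2 (PAC-1) is a nuclear phosphatase of blood cells that removes the activating phosphates from ERK and p38, so it acts on kinases that GADD45 proteins help to switch on. In blood stem cells, GADD45 proteins are known for acting in stress responses and in the choice between staying a stem cell and differentiating.

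In FPKM, the unit of the deposited values (fragments scaled to gene length and library size), Hira itself overlapped between the labels in 6 of 6 populations (0.84 to 3.22 in WT libraries and 0.72 to 2.74 in KO libraries). A value per gene covers the exons as a whole and leaves unknown whether the floxed exons were lost, so the groups are called labelled KO. Depth recovered from the values was 16.64 to 30.3 M reads per library in the first cohort and 5.82 to 9.57 M in the H2B-GFP cohort. All 13 stem and progenitor markers, among them Kit, Ly6a and Mecom, had a row in each table. In the HSC populations 13 reached 1 FPKM in at least 1 library, and in the MPP populations 12 did. Labelled KO replicate 3 stood apart in GFP-low HSCs and in GFP-high MPPs, where 8 neutrophil genes summed to 28100 and 23400 FPKM against at most 4700 and 6130 in the other libraries. The members' differences, the labelled KO share of Gadd45g and the medians of the pathway lists in those populations are given with and without it. The tables were scaled separately, so levels are compared within a population and not between populations. The libraries hold bulk RNA, in which fewer cells of a type and less RNA per cell cannot be told apart.

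On the GRCm38 build (mm10) the GENCODE models put Gadd45a on chromosome 6 from 67035096 to 67037457 (minus strand), Gadd45b on chromosome 10 from 80930073 to 80932204, Gadd45g on chromosome 13 from 51846678 to 51848468 and Dusp2 on chromosome 2 from 127336159 to 127338376, the last 3 on the plus strand. Each is a compact gene whose longest model has 4 exons. Their transcripts share no run longer than 17 bases (between Gadd45a and Gadd45g), so exchange of reads between the paralogs is limited to short matches. Gadd45a overlaps E230016M11Rik, a non-coding gene on the other strand, in 337 exonic bases, and since no source used here states that strand was kept, reads there cannot be assigned to one of them. The other members overlap no annotated gene.

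The 250 bases before each RefSeq start (GRCm38.p6, 5′ to 3′ on the strand of the gene) are shown because the 3 Gadd45 genes belong to 1 family and all had higher labelled KO means in 5 of 6 populations. Capitals mark 4 short motifs searched on both strands: the E-box CACGTG, the CCAAT box, the TATA box TATAAA and the octamer ATTTGCAT. The windows lie at chr6:67037408-67037657 (Gadd45a, minus strand), chr10:80929841-80930090 (Gadd45b), chr13:51846425-51846674 (Gadd45g) and chr2:127335909-127336158 (Dusp2).
Gadd45a: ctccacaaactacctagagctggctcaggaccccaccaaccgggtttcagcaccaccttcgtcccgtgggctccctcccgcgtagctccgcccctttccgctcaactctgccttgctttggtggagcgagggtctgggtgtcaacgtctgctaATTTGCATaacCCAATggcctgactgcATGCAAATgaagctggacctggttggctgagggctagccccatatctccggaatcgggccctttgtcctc
Gadd45b: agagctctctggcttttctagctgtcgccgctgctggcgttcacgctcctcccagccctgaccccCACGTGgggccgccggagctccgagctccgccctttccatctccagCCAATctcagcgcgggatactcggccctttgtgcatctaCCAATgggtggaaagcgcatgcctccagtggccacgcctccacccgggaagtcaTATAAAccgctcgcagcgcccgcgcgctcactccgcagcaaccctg
Gadd45g: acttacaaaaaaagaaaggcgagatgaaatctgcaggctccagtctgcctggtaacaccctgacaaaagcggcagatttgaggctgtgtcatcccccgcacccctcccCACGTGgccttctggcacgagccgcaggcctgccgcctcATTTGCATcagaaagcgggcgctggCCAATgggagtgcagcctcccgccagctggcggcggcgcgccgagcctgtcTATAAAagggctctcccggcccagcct
Dusp2: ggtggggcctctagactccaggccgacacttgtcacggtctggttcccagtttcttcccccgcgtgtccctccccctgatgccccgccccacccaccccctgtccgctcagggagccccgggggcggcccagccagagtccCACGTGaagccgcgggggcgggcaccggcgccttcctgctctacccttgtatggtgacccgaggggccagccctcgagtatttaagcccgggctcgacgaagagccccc
The E-box is in the windows of Gadd45b, Gadd45g and Dusp2 and in 6.05% of 27025 windows of the same length, 1 for each gene symbol of the RefSeq table. The octamer is in those of Gadd45a (once on each strand) and Gadd45g, against 1.61% of windows. The CCAAT box is in the 3 Gadd45 windows (34.5% of windows) and TATAAA in those of Gadd45b and Gadd45g (13%). The GC box GGGCGG, not in capitals, is in 3 of the 4 (32.9%), while the AP-1 letters TGANTCA and the CRE letters TGACGTCA were found in none of the 4 (6.87% and 1.62% of windows). These motifs were chosen after the windows had been seen, no 2 of the marked ones overlap, and a match is a description and not a shown binding site. The windows are GC-rich, at 59.2%, 65.2%, 62% and 70.4% in the order printed, against a median of 52%.

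In WT cells Dusp2 had the highest level of the 4 in each population and lay in the upper part of the tested genes, above 77.5% of them in HSCs and 90.4% in MPPs. In the H2B-GFP cohort it lay above 91.5% to 95.4%. Gadd45a was low, above 3.46% to 27.6% of the tested genes over the 6 populations. In the 3 HSC populations the order by FPKM was Dusp2, Gadd45g, Gadd45b and Gadd45a. Neighbours in that order had separate libraries apart from Gadd45b and Gadd45a in HSCs of the first cohort, at 3.06 ± 0.585 and 2.29 ± 0.494 FPKM (SD, n = 4). In MPPs of the first cohort the order was Dusp2, Gadd45b, Gadd45a and Gadd45g, with overlap between Gadd45b and Gadd45a, and in the GFP-sorted MPPs it was Dusp2, Gadd45b, Gadd45g and Gadd45a, with overlap between Gadd45b and Gadd45g in GFP-low cells. Behind single values stood 15 to 424 reads for Gadd45a, 59 to 406 for Gadd45b, 27 to 567 for Gadd45g and 763 to 4752 for Dusp2.

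The make-up of the Gadd45 pool, as each gene's share of the summed Gadd45 FPKM of a library, does not depend on the scaling of a table. Gadd45g held 53.4% ± 5.78 of the pool in WT HSCs and 16.6% ± 2.53 in WT MPPs (SD, n = 4 each). The libraries ran from 44.7% to 56.9% and from 15.3% to 20.4%, with no overlap. In GFP-high cells its share was 54.2% ± 6.46 in WT HSCs against 32.8% ± 7.54 in WT MPPs (n = 3 each, no overlap), and in GFP-low cells 54.5% ± 10.9 against 33.8% ± 14.9, where the libraries overlapped. Gadd45b held the largest part in WT MPPs, at 50.4% ± 6.8, 57.6% ± 5.51 and 50.9% ± 15 in the first cohort, GFP-high and GFP-low cells. In WT HSCs it held 26.8% ± 5.58, 38% ± 4.68 and 32.9% ± 3.36. These shares were not tested between cell types.

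**Figure D1:**
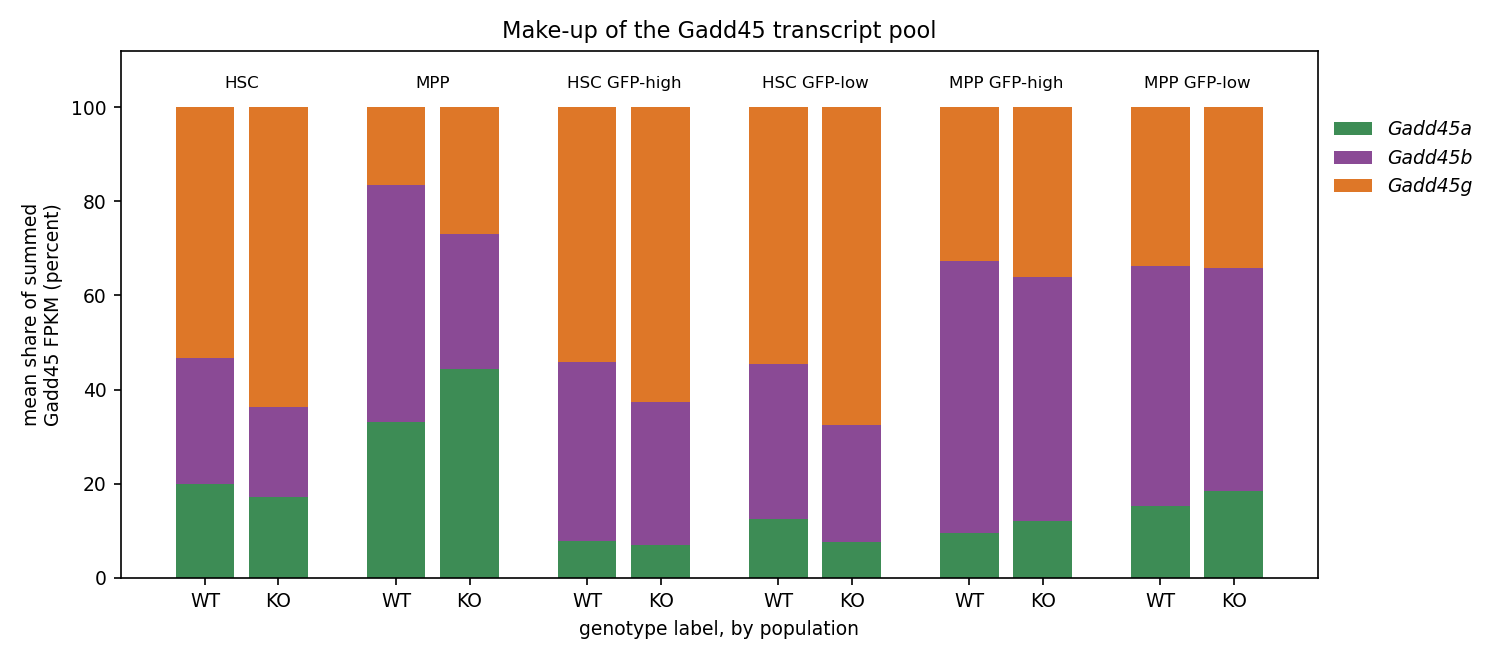
Mean share of each Gadd45 gene in the summed Gadd45 FPKM (vertical axis, percent) for WT and labelled KO libraries of the 6 populations (horizontal axis), with colours for the genes. Gadd45g makes up the largest part in the HSC columns (53.4% in WT HSCs of the first cohort) and a smaller one in the MPP columns (16.6%).

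Between the labels, labelled KO means stood above WT in 22 of 24 values (4 genes in 6 populations), by a median of 0.41 in log2(FPKM + 1), where the median over all tested genes lay within 0.01 of 0 in each population. The 2 negative values were those of Dusp2 and Gadd45b in MPPs of the first cohort. Libraries did not overlap for 8 of the 24 values, 7 with labelled KO higher and 1 with it lower. Of all tested genes, labelled KO lay higher with no overlap in 2.81% in HSCs, 5.08% in MPPs, 8.61% and 7.67% in GFP-high and GFP-low HSCs, and 6.74% and 9.73% in GFP-high and GFP-low MPPs. It lay lower with no overlap, in the same order, in 3.39%, 4.84%, 7.47%, 6.42%, 6.59% and 9.33%. The members were chosen on these contrasts, so nothing is read from these counts.

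**Figure D2:**
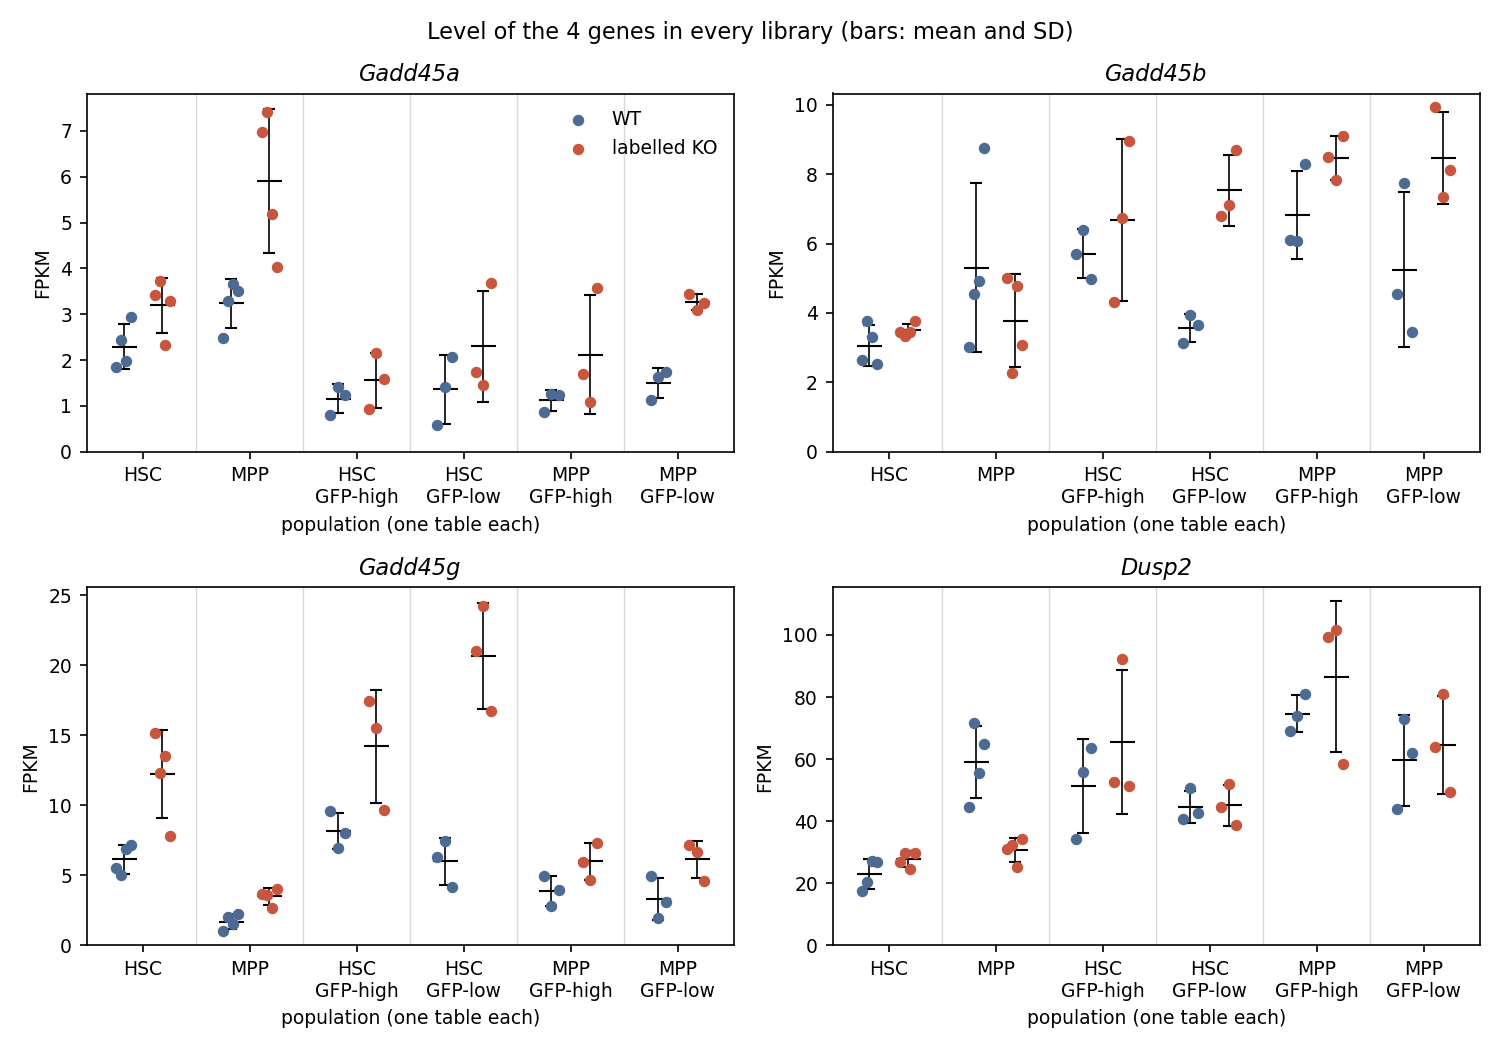
FPKM (vertical axes, from 0) of Gadd45a, Gadd45b, Gadd45g and Dusp2 in every library (points) of the 6 populations (horizontal axes), WT in blue and labelled KO in red, with the mean and SD as bars. Gadd45g lies higher in labelled KO in each population, and Dusp2 lies lower in labelled KO in MPPs of the first cohort (25.2 to 34.1 FPKM against 44.7 to 71.6).

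Gadd45g, the cytokine-induced member, had a higher labelled KO mean in 6 of 6 populations and libraries that did not overlap in 4. In HSCs the WT libraries held 5.55, 5.02, 6.85 and 7.2 FPKM and the labelled KO libraries 15.2, 12.3, 13.6 and 7.83. The WT libraries lie close together, and KO replicate 4 lies just above the highest of them while the other 3 lie well above. The means were 6.16 ± 1.04 and 12.2 ± 3.16 FPKM (SD, n = 4 each), a difference of 0.86 in log2(FPKM + 1) (SE 0.18), which was 1.04 without KO replicate 4. Gadd45g was the 1 member of 4 with no overlap there, where 2.81% of tested genes had labelled KO libraries above every WT library. In MPPs the WT libraries held 0.998, 2, 1.56 and 2.21 FPKM and the labelled KO libraries 3.69, 3.62, 2.65 and 4.02. Levels were low on both sides and did not overlap, with a log2 difference of 0.75 (SE 0.18) on 27 to 164 reads. In MPPs 2 of 4 members (Gadd45g and Gadd45a) lay higher with no overlap, against 5.08% of tested genes.

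The same gene had its widest separation in GFP-low HSCs, the stem cells that had divided more. There the WT libraries held 6.34, 7.48 and 4.19 FPKM and the labelled KO libraries 21, 24.2 and 16.7. The lowest labelled KO library was above the highest WT library by more than the whole WT range, and the means were 6.01 ± 1.67 and 20.7 ± 3.76 FPKM (n = 3 each). The log2 difference was 1.64 (SE 0.21), the highest of the 24 values, and 1.78 without KO replicate 3. In GFP-high HSCs the WT libraries held 9.56, 6.94 and 8.01 FPKM and the labelled KO libraries 17.5, 15.5 and 9.67. KO replicate 3 lay next to the highest WT library, and the log2 difference was 0.70 (SE 0.21). Groups did not overlap with labelled KO higher in 8.61% of tested genes of GFP-high HSCs (1 of 4 members) and 7.67% of GFP-low HSCs (2 of 4). Whether the difference was larger in GFP-low than in GFP-high HSCs was not tested. In GFP-sorted MPPs the Gadd45g libraries overlapped, with means of 3.89 ± 1.07 and 5.99 ± 1.33 FPKM in GFP-high cells (log2 0.52, SE 0.21, and 0.39 without KO replicate 3). In GFP-low cells they were 3.34 ± 1.5 and 6.13 ± 1.35 FPKM (log2 0.76, SE 0.26).

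**Figure D3:**
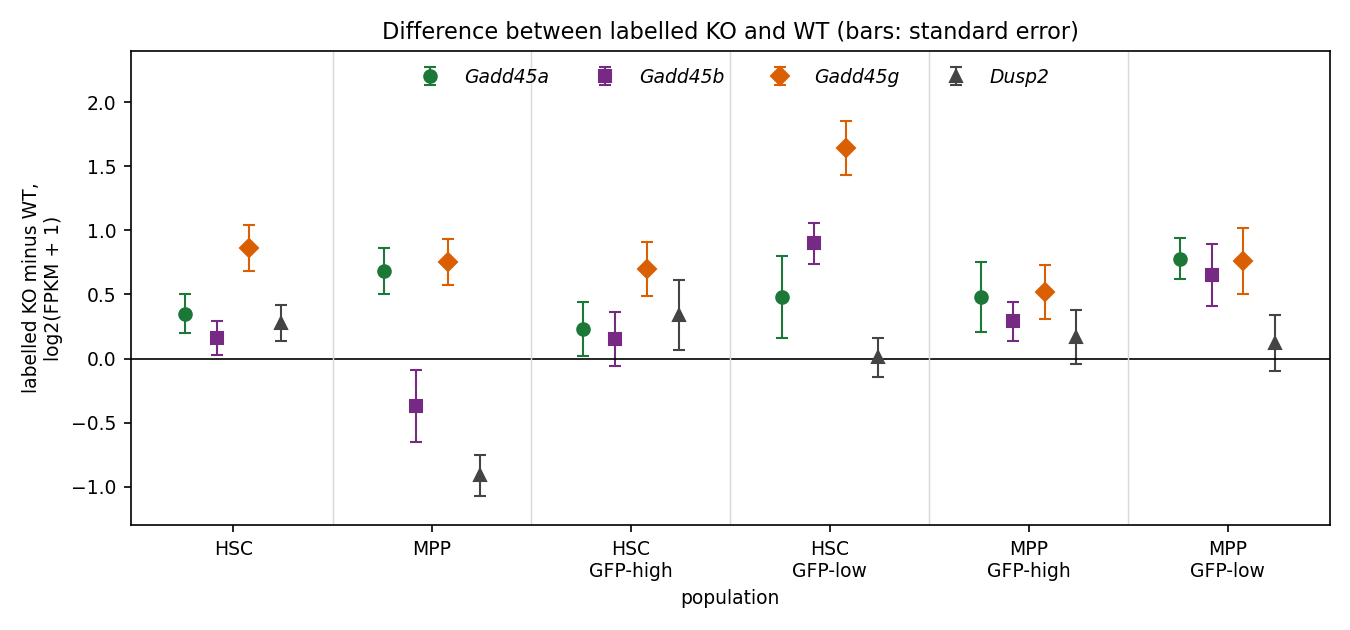
Difference between labelled KO and WT in log2(FPKM + 1) (vertical axis) for each gene in the 6 populations (horizontal axis), with the standard error from limma as bars. Gadd45g is above 0 in each population and reaches 1.64 in GFP-low HSCs, while Dusp2 is at -0.91 in MPPs of the first cohort and between 0.01 and 0.34 elsewhere.

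Gadd45a, the p53-responsive member, also had a higher labelled KO mean in 6 of 6 populations, with no overlap in the 2 MPP populations described next. In MPPs of the first cohort the WT libraries held 2.48, 3.29, 3.66 and 3.51 FPKM and the labelled KO libraries 6.98, 7.4, 5.18 and 4.04. KO replicate 4 was the lowest of its group and close to WT, and the log2 difference was 0.68 (SE 0.18), or 0.82 without that library. In GFP-low MPPs the WT libraries held 1.13, 1.63 and 1.74 FPKM and the labelled KO libraries 3.45, 3.1 and 3.25. Both groups were tight and apart, with a log2 difference of 0.78 (SE 0.16) on 27 to 82 reads. Gadd45a was the 1 member of 4 without overlap in GFP-low MPPs, against 9.73% of tested genes with labelled KO higher.

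In the other 4 populations the Gadd45a libraries overlapped, with log2 differences of 0.35 in HSCs (SE 0.15), 0.23 in GFP-high HSCs (SE 0.21), 0.48 in GFP-low HSCs (SE 0.32) and 0.48 in GFP-high MPPs (SE 0.27). In the last 2 the highest library was KO replicate 3, at 3.69 and 3.57 FPKM, and without it the differences were 0.19 and 0.17. In GFP-high HSCs the difference ran from 0.07 without KO replicate 2 to 0.42 without KO replicate 1. The antisense gene E230016M11Rik had its lowest and highest labelled KO values above the lowest and highest WT values in each population, the direction of the Gadd45a means. The populations in which it separated the labels with no overlap were not those in which Gadd45a did. Its libraries did not overlap in HSCs, at 0.165 to 0.296 FPKM in WT and 0.554 to 0.623 in labelled KO, or in GFP-high HSCs, at 0.163 to 0.237 and 0.434 to 0.883. They overlapped in MPPs (0.109 to 0.689 and 0.61 to 1.07 FPKM) and GFP-low MPPs (0.169 to 0.766 and 0.232 to 0.837), where Gadd45a did not, and in GFP-low HSCs (0.196 to 0.327 and 0.238 to 1.34) and GFP-high MPPs (0.242 to 0.746 and 0.613 to 1.12). How many Gadd45a reads come from it was not tested.

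Gadd45b, the NF-kB-responsive member, stood higher in labelled KO in 5 of 6 populations, with no overlap in GFP-low HSCs. There the WT libraries held 3.14, 3.94 and 3.64 FPKM and the labelled KO libraries 6.79, 7.11 and 8.71. The means were 3.57 ± 0.408 and 7.54 ± 1.03 FPKM (SD, n = 3 each), a log2 difference of 0.90 (SE 0.16) that was 0.80 without KO replicate 3. In MPPs of the first cohort the WT libraries held 3.01, 4.54, 4.92 and 8.75 FPKM and the labelled KO libraries 5, 2.26, 4.79 and 3.06. The groups overlapped and the value rested on WT replicate 4: the log2 difference was -0.37 (SE 0.28) with it and -0.13 without it, and -0.56 without WT replicate 1. In the remaining populations the libraries overlapped, with log2 differences of 0.16 in HSCs (SE 0.13), 0.15 in GFP-high HSCs (SE 0.21), 0.29 in GFP-high MPPs (SE 0.15, and 0.24 without KO replicate 3) and 0.65 in GFP-low MPPs (SE 0.24). With 1 library left out they ran from 0.10 (without WT replicate 4) to 0.24 (without WT replicate 2) in HSCs, from -0.06 (without KO replicate 3) to 0.40 (without KO replicate 1) in GFP-high HSCs, from 0.22 to 0.42 in GFP-high MPPs and from 0.43 (without WT replicate 3) to 0.92 (without WT replicate 2) in GFP-low MPPs.

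Dusp2, the phosphatase, was the 1 member that was lower in labelled KO with no overlap, in MPPs of the first cohort, where 4.84% of tested genes had labelled KO libraries below every WT library. The WT libraries held 44.7, 71.6, 55.4 and 64.8 FPKM and the labelled KO libraries 31.2, 32.4, 25.2 and 34.1. The highest labelled KO library was below the lowest WT library, and the labelled KO mean was 0.52 of the WT mean (30.7 ± 3.87 against 59.1 ± 11.7 FPKM, SD, n = 4 each). The log2 difference was -0.91 (SE 0.16), on 1574 to 4752 reads per library. Over the fits that left out 1 library it ran from -1.03 to -0.81.

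The MPPs sorted by GFP at the later time did not show that order of the groups. In GFP-high MPPs the WT libraries held 69, 73.9 and 81 FPKM and the labelled KO libraries 99.5, 102 and 58.5, so that 2 labelled KO libraries were above and 1 below all WT libraries (log2 0.17, SE 0.21, and 0.43 without KO replicate 3, 0.05 without KO replicate 1 or 0.03 without KO replicate 2). In GFP-low MPPs the WT libraries held 43.8, 72.9 and 62 FPKM and the labelled KO libraries 63.8, 80.8 and 49.3, which overlap broadly (log2 0.12, SE 0.22, and -0.08 without WT replicate 1 or -0.05 without KO replicate 2). In HSCs of the first cohort the WT libraries held 17.6, 20.5, 27.1 and 26.8 FPKM and the labelled KO libraries 26.9, 29.8, 24.7 and 29.7, a log2 difference of 0.28 (SE 0.14) with overlap, or 0.16 without WT replicate 1. GFP-high HSCs gave 0.34 (SE 0.27, and 0.07 without KO replicate 2 or 0.08 without WT replicate 1). GFP-low HSCs gave 0.01 (SE 0.15, and 0.11 without KO replicate 3), whose sign changed under 4 alternatives: rescaling to one total (-0.03) and leaving out WT replicate 1 (-0.05), WT replicate 3 (-0.02) or KO replicate 2 (-0.09).

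Within the Gadd45 pool of MPPs of the first cohort, the share of Gadd45b was 50.4% ± 6.8 in WT and 28.6% ± 8.82 in labelled KO libraries (SD, n = 4 each), with ranges of 46.2% to 60.5% and 17% to 37.9% that do not overlap. Gadd45g held 16.6% ± 2.53 and 27% ± 6.61, also with no overlap. In HSCs the Gadd45g share was 53.4% ± 5.78 and 63.7% ± 7.98 with overlap. In GFP-high HSCs it was 54.2% ± 6.46 and 62.7% ± 14.5, also with overlap (n = 3 each). In GFP-low HSCs it was 54.5% ± 10.9 and 67.5% ± 8.8 with overlap (n = 3 each), and the labelled KO share was 72.5% ± 1.95 without KO replicate 3. In GFP-sorted MPPs the shares of Gadd45g overlapped, at 32.8% ± 7.54 and 36% ± 1.36 in GFP-high cells (35.6% ± 1.73 without KO replicate 3) and 33.8% ± 14.9 and 34.2% ± 5.1 in GFP-low cells (n = 3 each).

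Markers of other cell types moved with these differences in some populations, and their part in the results was not tested. In HSCs 9 macrophage genes summed to 16.5 to 23.6 FPKM in WT and 32.3 to 35.4 in labelled KO (8 of 9 higher in the mean), and 7 mast cell and basophil genes to 10.8 to 12.2 and 13.4 to 19.6 (5 of 7 higher). In MPPs the mast cell and basophil genes summed to 7.94 to 17.2 and 24.5 to 74.6 FPKM (6 of 7 higher), while 13 stem and progenitor markers summed to 593 to 662 and 495 to 577 (3 of 13 higher). In GFP-low HSCs erythroid genes summed to 272 to 445 FPKM in WT and 638 to 2460 in labelled KO (7 of the 7 in the table higher), and B cell genes to 29.5 to 33.3 and 34.6 to 54.6 (8 of 8 higher). In GFP-high MPPs macrophage genes summed to 17.1 to 22.8 and 26.1 to 34.2 FPKM (9 of 9 higher), and in GFP-low MPPs the stem and progenitor markers to 668 to 748 and 516 to 655 (5 of 13 higher). In GFP-high HSCs the neutrophil genes summed to 5320 to 7160 FPKM in WT and 4150 to 5300 in labelled KO (4 of 8 higher in the mean). Some other sums overlapped between the labels while most genes of the list were higher in the labelled KO mean. Erythroid genes were so in HSCs (7 of 8), MPPs (8 of 8), GFP-high MPPs (6 of 7) and GFP-low MPPs (7 of 7). Macrophage genes were so in MPPs (8 of 9), GFP-low HSCs (8 of 8) and GFP-low MPPs (8 of 8). Neutrophil genes were so in GFP-low HSCs and GFP-high MPPs (8 of 8 in each), where KO replicate 3 stood apart. In GFP-high HSCs 1 of 7 erythroid and 3 of 9 macrophage genes were higher. B cell sums overlapped in the populations other than GFP-low HSCs. Few B cell genes were higher in HSCs (0 of 7), MPPs (0 of 8), GFP-high HSCs (1 of 7) and GFP-low MPPs (2 of 8). In GFP-high MPPs 4 of 8 B cell genes were higher. The summed T and NK cell markers overlapped between the labels in each population. No marker with a row in a table was at 0 in every library of it, and those with no row (such as Cd8a of T cells in HSCs and MPPs of the first cohort) were not analysed there.

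Of the genes around GADD45 and DUSP2, listed in 9 groups of 135 genes in all, few passed limma's test over all genes (Benjamini-Hochberg adjusted p under 0.05). The test called 0.124% of all tested genes in HSCs and 0.108% in MPPs of the first cohort, 0.0276% and 0% in GFP-high and GFP-low HSCs, and 0% and 0.32% in GFP-high and GFP-low MPPs. In HSCs 1 of 111 tested rose and 1 fell. Btg2, an antiproliferative immediate-early gene, rose from 6.78 ± 0.839 to 14.1 ± 3.12 FPKM (limma's adjusted p = 0.039). Vldlr, a lipoprotein receptor listed with the integrated stress response, fell from 4.44 ± 0.549 to 2.28 ± 0.0927 FPKM (limma's adjusted p = 0.0473). In GFP-low MPPs 1 of 103 rose: Nr4a1, a nuclear receptor induced within minutes of stimulation, went from 0.887 ± 0.225 to 3.67 ± 0.641 FPKM (log2 1.30, limma's adjusted p = 0.035). Its WT mean lay under the 1 FPKM of the filter, which it met through the labelled KO libraries. With no filter limma's adjusted p for Nr4a1 was 0.134, not past the threshold. In MPPs 0 of 109 passed, in GFP-high HSCs 0 of 110, in GFP-low HSCs 0 of 106 and in GFP-high MPPs 0 of 108. At an unadjusted p under 0.05 by limma were 21 (19.3%) of the listed genes in MPPs against 16.6% of all tested genes, 20 (18.2%) against 10.4% in GFP-high HSCs, 16 (15.1%) against 8.57% in GFP-low HSCs and 7 (6.48%) against 7.09% in GFP-high MPPs. In HSCs they were 21 (18.9%) against 10.1%, and in GFP-low MPPs 17 (16.5%) against 12.3%. With 1 library left out, the differences of Btg2, Vldlr and Nr4a1 stayed near their values while most of the fits lost the call. The log2 difference of Btg2 ran from 0.81 to 1.01 around 0.95, past the threshold without KO replicate 1 (limma's adjusted p = 0.0438) and not in the other 7 fits (adjusted p = 0.057 to 0.135). That of Vldlr ran from -0.80 to -0.69 around -0.73, past the threshold without WT replicate 2 (limma's adjusted p = 0.0493) and not in the other 7 (0.0937 to 0.155). That of Nr4a1 ran from 1.20 to 1.41, past the threshold without KO replicate 1 (limma's adjusted p = 0.0283) and not in the other 5 (0.0564 to 0.136).

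The kinase relay that GADD45 proteins feed had no gene past the test in any of the 6 populations, with 1 to 4 at an unadjusted p under 0.05 by limma. Of all tested genes 7.09% to 16.6% were at that p, depending on the population. Map3k4, the kinase that GADD45 proteins bind, stood at 5.24 and 4.97 FPKM in WT and labelled KO HSCs and at 4.82 and 4.63 in MPPs, and Mapk14, which encodes p38 alpha, at 32.6 and 30.6 and at 33.4 and 31.9. Mapk14 was lower in labelled KO with no overlap in GFP-low HSCs, at 16.8 ± 3.66 against 21.7 ± 1.47 FPKM (n = 3 each, and 18.9 ± 0.497 without KO replicate 3), and in GFP-low MPPs, at 19.6 ± 1.64 against 22.8 ± 0.569. Of the 16 genes listed with that relay and the GADD45 partners, 15 were tested in HSCs (median log2 0.07) and 16 in MPPs (0.09), where 3 lay higher in labelled KO with no overlap (5.08% of all tested genes did). In GFP-low HSCs the relay had 4 genes lower and 1 higher with no overlap (6.42% and 7.67% of all tested genes were). It had a median of -0.09 with 3 positive of 15, and a median of -0.17 without KO replicate 3. In the other 3 populations its medians were 0.02 in GFP-high HSCs, 0.05 in GFP-high MPPs (0.05 also without KO replicate 3) and 0.10 in GFP-low MPPs. In GFP-low MPPs 4 of the 16 relay genes lay higher and 2 lower with no overlap (9.73% and 9.33% of all tested genes did). Among the other MAP kinase phosphatases, Dusp1 stood at 9.79 and 9.31 FPKM and Dusp6 at 28.4 and 24 in WT and labelled KO MPPs, the cells in which Dusp2 was lower. The list as a whole had a median log2 of -0.145 there, 1 positive of 6 tested and 0 without overlap. Its lowest median was in GFP-low HSCs, where Dusp2 itself was at 0.01: -0.35 (-0.29 without KO replicate 3), with 2 positive of 5 tested and 3 below WT with no overlap. Those were Dusp5, Dusp6 and Dusp10, of which Dusp6, the ERK phosphatase of the cytoplasm, stood at 12.1 ± 1.53 against 15.6 ± 1.81 FPKM (n = 3 each). Dusp5 (1.13 ± 0.23 against 1.8 ± 0.416 FPKM) and Dusp10 (0.457 ± 0.502 against 1.57 ± 0.347) were near the 1 FPKM of the filter. Dusp10 met that filter through its WT libraries, the group in which it was higher. None passed limma's test over all genes (2 of the 5 at an unadjusted p under 0.05, against 8.57% of all tested genes). Of all tested genes 6.42% lay below WT there with no overlap. Dusp5 and Dusp10 are named after their values were seen. In the other 4 populations the medians ran from -0.10 to 0.05 (0.06 in GFP-high MPPs without KO replicate 3). The base excision and TET genes, which include the glycosylase Tdg and the nuclease Ercc5, had medians from -0.09 to 0.05 over the 6 populations, and the p53 targets medians from 0.02 to 0.17. Without KO replicate 3 the former were -0.05 in GFP-low HSCs and 0.01 in GFP-high MPPs, and the latter 0.08 and 0.01. Of the p53 targets 12 of 15 tested were positive in GFP-high HSCs, with 4 higher and 0 lower with no overlap (8.61% and 7.47% of all tested genes). In GFP-low MPPs 9 of 11 were positive, with 3 higher and 0 lower with no overlap (9.73% and 9.33%). In the other 4 populations 0 to 2 lay higher with no overlap (2.81% to 7.67%), and 1 lay lower, in GFP-low HSCs. None passed limma's test over all genes. Medians of the ERK cascade list ran from -0.21 to 0.06. Those of the integrated stress response ran from -0.125 to 0.18, and those of TGF-beta and SMAD targets from -0.17 to 0.22. In GFP-low HSCs these medians were -0.02, 0.12 and 0.12 (-0.07, 0.09 and 0.16 without KO replicate 3). In GFP-high MPPs they were 0.06, 0.03 and 0.06 (0.001, 0.13 and 0.01 without it).

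The NF-kB targets, among which Nfkbia encodes the inhibitor IkB alpha, had their lowest medians in MPPs of the first cohort, at -0.33 with 2 positive of 13 tested and 3 below WT with no overlap, and in GFP-low MPPs, at -0.24 with 3 positive of 14 and 4 below with no overlap. None passed limma's test over all genes in either population, with 5 and 4 at an unadjusted p under 0.05 (16.6% and 12.3% of all tested genes were). Gadd45b, which that pathway controls elsewhere, was at -0.37 in the first population and at 0.65 in the second. In both, medians over all tested genes were within 0.01 of 0, and 4.84% and 9.33% of all tested genes lay below WT with no overlap. In the other populations the list's medians ran from -0.03 to 0.18, and without KO replicate 3 they were 0.15 in GFP-low HSCs (-0.02 with it) and 0.13 in GFP-high MPPs (0.07).

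Immediate-early genes, which cells switch on within minutes of a stimulus, had positive medians in 5 of 6 populations. The median log2 was 0.21 in HSCs (11 positive of 15 tested), 0.37 in GFP-high HSCs (12 of 15), 0.29 in GFP-low HSCs (11 of 14), 0.33 in GFP-high MPPs (12 of 15) and 0.17 in GFP-low MPPs (11 of 14), against -0.01 in MPPs of the first cohort (6 of 13). Without KO replicate 3 it was 0.23 in GFP-low HSCs and 0.33 in GFP-high MPPs. Over all tested genes 49.2% to 51% were positive. In HSCs 5 of the 15 lay higher in labelled KO with no overlap (2.81% of all tested genes did), among them Fos, a subunit of AP-1, at 18.6 ± 4.47 against 9.08 ± 1.21 FPKM (limma's adjusted p = 0.0573, not past the threshold). In GFP-low HSCs 4 of 14 did (7.67% of all genes), in GFP-low MPPs 3 of 14 (9.73%), in MPPs 1 of 13 (5.08%), in GFP-high HSCs 1 of 15 (8.61%) and in GFP-high MPPs 1 of 15 (6.74%). The genes below WT with no overlap were Ier2 in MPPs, at 27.5 ± 6.93 against 41.4 ± 5.22 FPKM (n = 4 each), and Hes1 in GFP-high HSCs, at 1.31 ± 0.588 against 2.18 ± 0.239 (n = 3 each), both named after their values were seen. Jun, the partner of Fos, stood at 10.4 against 7.62 FPKM in HSCs and at 8.37 against 9.46 in MPPs.

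**Figure D4:**
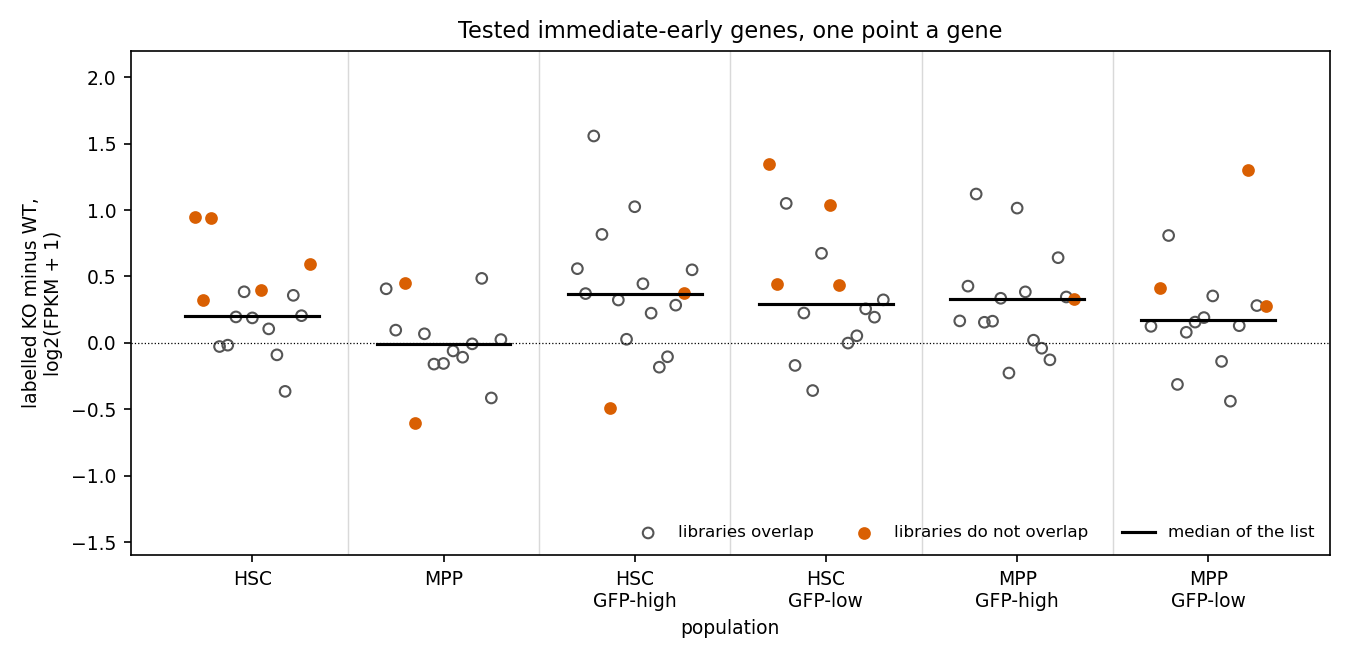
Difference between labelled KO and WT in log2(FPKM + 1) (vertical axis) of the tested immediate-early genes in the 6 populations (horizontal axis), 1 point a gene, filled where the libraries do not overlap, with the list median as a line. The medians run from -0.01 in MPPs of the first cohort to 0.37 in GFP-high HSCs.

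With each group centred on its own mean, which takes out genotype and population, the members hardly varied together over the 40 libraries. Pearson's r was 0.30 between Gadd45a and Gadd45b, -0.15 between Gadd45a and Gadd45g, -0.17 between Gadd45b and Gadd45g, and 0.08, 0.09 and 0.05 between Dusp2 and Gadd45a, Gadd45b and Gadd45g. Of 9337 other genes measured in the 6 tables, those most like Dusp2 were Card19 (r = 0.80), the formin Fmnl1 (0.79), the ribonuclease gene Rnase6 (0.77), Inpp5d, which encodes the lipid phosphatase SHIP1 (0.76), and Caskin2 (0.76). Those most like Gadd45a were Rgs2, a regulator of G protein signalling (0.73), App (0.71), Ccdc71l (0.70), Ggnbp2 (0.70) and Hdgf (0.70). For Gadd45g they were Toe1 (0.66), Tpst2 (0.60), Vill (0.58), Yipf2 (0.57) and Fads2 (0.57), and for Gadd45b Tmem175 (0.62), Rsph3b (0.62), Tmem154 (0.56), Ctsb (0.56) and Bloc1s5 (0.55). The points are libraries that share depth and composition, and these are the highest of many correlations, so they are given as a description. Card19 held its value in both cohorts (0.79 and 0.80 within the first and the H2B-GFP cohort), while Tmem154 and Gadd45b did not (0.79 and 0.20). With Gadd45a, Hdgf (0.36 and 0.85), Ccdc71l (0.44 and 0.80) and Rgs2 (0.50 and 0.84) were lower in the first cohort, and App was at 0.70 and 0.74. The correlations were not run without KO replicate 3.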

How the data were processed

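Gene expression was measured by RNA sequencing of polyA RNA (SMART-Seq2, Nextera XT) in 40 libraries. The deposited tables, 1 for each of 6 populations, hold FPKM values computed by the authors. Per the submitters' processing notes STAR, DESeq2, HOMER and mm10 were used, with roles and versions not given in the sources used here. Values are scaled within each table, so no test crosses tables. Each of the 40 library columns matched a sample, with 0 left over. Whole reads (within 0.01) were recovered from the FPKM steps of 99.95% to 99.99% of genes and give the depth.

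Groups were compared with limma 3.58.1 (R 4.3.3) on log2(FPKM + 1), two-sided, with an intensity trend and Benjamini-Hochberg adjustment over all genes at 1 FPKM or more in at least 4 (first cohort) or 3 (H2B-GFP) libraries. A fold on this scale understates that of low genes. The design text calls the replicates biological. No library pair was identical, and the fit was tested on simulated data. The members, lists and tests were chosen with earlier results of these data known.

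Named were the 4 members, the first 2 genes of a list as examples, up to 3 list genes past the test per direction, and the 5 genes most like each member. Alternatives were a pseudocount of 0.1, no filter, one total, array weights, a replicate block and leaving out each library. For the lists and shares, leaving out the KO replicate that stood apart was chosen after seeing the data.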

Additional observations from a re-analysis of the deposited data

Results flagged for a closer look

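Labelled KO libraries of Dusp2 and Gadd45b lay on different sides of the WT mean in different populations. In MPPs of the first cohort every labelled KO library was below the WT mean for Dusp2 (labelled KO mean 30.7 FPKM), while in HSCs of the first cohort and in GFP-high HSCs every labelled KO library was above it. For Gadd45b every labelled KO library of MPPs was below the WT mean (labelled KO mean 3.78 FPKM), while in HSCs, GFP-low HSCs, GFP-high MPPs and GFP-low MPPs every one was above it. Libraries overlapped between the labels for Gadd45b in MPPs (log2 -0.37, and -0.13 without WT replicate 4) and for Dusp2 in both HSC populations. The differences between populations were not tested, since the genes were chosen on these contrasts. Of 16 groups of 4 libraries (4 genes), 0 held a library far from the others by Dixon's 95% value.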

How the results depend on the processing

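Over 256 alternative fits of the 24 member differences, 21 of the 24 kept their sign in every fit, 253 fits moved the value by less than the spread between replicates and 3 moved it by more, in each case the pseudocount of 0.1 (Gadd45g in MPPs 1.04, Gadd45b in GFP-low HSCs 1.05, Gadd45a in GFP-low MPPs 1.09). The 7 changes of sign were those of Dusp2 in GFP-low HSCs and GFP-low MPPs and of Gadd45b in GFP-high HSCs.

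Counts of genes past the test were less stable, and the cause was not tested. In HSCs 17 genes passed, against 2 with no filter, 6 with one total, 33 with array quality weights and 10 with the replicate block. In MPPs 15 passed, against 7 with the smaller pseudocount, 0 with no filter, 247 with weights and 137 with the block. GFP-high HSCs gave 3, and 5 with weights. GFP-low HSCs gave 0, and 3 with weights. GFP-low MPPs gave 34 (24 higher and 10 lower), against 2 with no filter, 52 with the block and 33 (27 and 6) with one total. Leaving out 1 library gave 9 to 17 in HSCs (9 without WT replicate 1 or 4 or KO replicate 2), 0 (without WT replicate 2 or 4) to 205 (without KO replicate 4) in MPPs, 0 to 1 in GFP-high HSCs, 0 to 6 in GFP-low HSCs (6 without KO replicate 1), 0 to 1 in GFP-high MPPs (1 without KO replicate 1) and 0 to 31 in GFP-low MPPs (31 without KO replicate 1, 17 without WT replicate 1, at most 1 otherwise). Of the listed pathway genes, 2 passed in HSCs (0 with no filter, 0 with one total, 1 with the block), 0 in MPPs (4 with weights, 5 with the block) and 1 in GFP-low MPPs (0 with no filter). With 1 library left out these were 0 to 1, 0 to 5 and 0 to 1, and 0 to 1 in GFP-low HSCs. Same-numbered WT and labelled KO libraries did not deviate together in every pair of any population (r from -0.116 to 0.285, the highest in replicate 4 of MPPs). With values centred within groups of 3 or 4 libraries, such r cannot show whether the numbers mark pairs. With values centred on the table and not the group, 3 of the 20 genes named as most like a member were named again. In the H2B-GFP cohort 15 reads stood behind the lowest Gadd45a value, which limits its precision.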
